A study of Rattus norvegicus with 10 samples.

Results

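The genes described here make collagen and elastin ready for the matrix: the crosslinking oxidases Lox and Loxl1, the lysyl hydroxylases Plod1 and Plod2, the prolyl 4-hydroxylase subunits P4ha1 and P4hb, the collagen chaperone Serpinh1 and the procollagen proteinase enhancer Pcolce. They were chosen by name, as the probe sets whose platform annotation gives 1 of these 8 genes as the only gene. That found 10 of the 15866 probe sets of the array, 2 each for Lox and Serpinh1 and 1 for each other gene. Total RNA labelled as cavernosal tissue of the penis was measured on Affymetrix RAE230A arrays in 5 control F344 rats and 5 F344 rats with streptozotocin-induced diabetes of 10 weeks, with 1 array per sample. F344 is an inbred strain, and streptozotocin is a toxin of pancreatic beta cells. The labels give no age or vehicle, and nothing on pooling of animals, so the p-values here cover the spread from sample to sample, which may be technical. The values are the authors' intensities, linear and scaled to a common array mean, and are given in those units. Differences are diabetic minus control on the log2(intensity + 16) scale.

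Procollagen chains are hydroxylated on proline and lysine inside the endoplasmic reticulum, where prolyl hydroxylation allows the triple helix to hold at body temperature, and Serpinh1 binds and escorts the folded helix. Outside the cell the ends of procollagen are cut off, a step that Pcolce speeds up. Lox and Loxl1 then oxidise lysine residues, and the products join neighbouring molecules into stiff, insoluble fibres. In erectile tissue, collagen and elastin form the walls between the blood spaces and the sheath that limits their expansion.

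The samples differed in tissue makeup, which touches several of the results. Smooth muscle markers (10 of 10 on the array) and endothelial markers (8 of 10) were measured in every sample, with Acta2, smooth muscle actin, between 1159.7 and 2015.6. Bglap (osteocalcin) and Ibsp (bone sialoprotein), which mark bone-forming cells, read 391.9 and 129.6 in control 1 and 806.1 and 267.6 in control 2. In the other 8 arrays Bglap lay between 1.3 and 2.3 and Ibsp between 3.4 and 7.3. The whole bone and cartilage list, 9 of 15 genes on the array, summed to 827.5 to 3461.8 in controls and 846.9 to 1853.2 in diabetic arrays. Epithelial markers, 15 of 18 on the array, were low in the same 2 controls: their summed intensity ran from 922.8 to 13777.4 in controls and from 6705.3 to 13905.9 in diabetic arrays. Epcam, an epithelial adhesion molecule, read 43.1 and 83.4 in controls 1 and 2 and 602.3 to 3558.5 elsewhere. Skeletal muscle markers, 19 of 20 on the array, summed to 111620.8 to 135706.1 in controls and 91260.7 to 122291.3 in diabetic arrays. Of these 19, 18 were negative and none was called; Pvalb, parvalbumin of fast muscle fibres, stood at -1.79 ± 0.55 with no overlap between the groups (limma adjusted p = 0.160). Adipocyte markers, 7 of 10 on the array, summed to 825.0 to 1961.0 in controls and 1767.5 to 2761.8 in diabetic arrays. Lpl alone gave 723.2 to 1171.7 of the diabetic sums. Of the 5 tested, Lpl and Cidea were called higher (1.41 ± 0.15 and 1.15 ± 0.19, limma adjusted p = 0.0108 and 0.0413). The others were not called: Lipe stood at 0.60 ± 0.19, Fabp4 at 0.38 ± 0.38 and Cfd, on the other side, at -0.56 ± 0.42. Plin1 and Pparg were too dim to be tested. The adipocyte list thus did not move as 1. The difference of each member is therefore also given without controls 1 and 2. In whole tissue fewer cells of a type and less RNA per cell cannot be told apart.

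**Figure D1:**
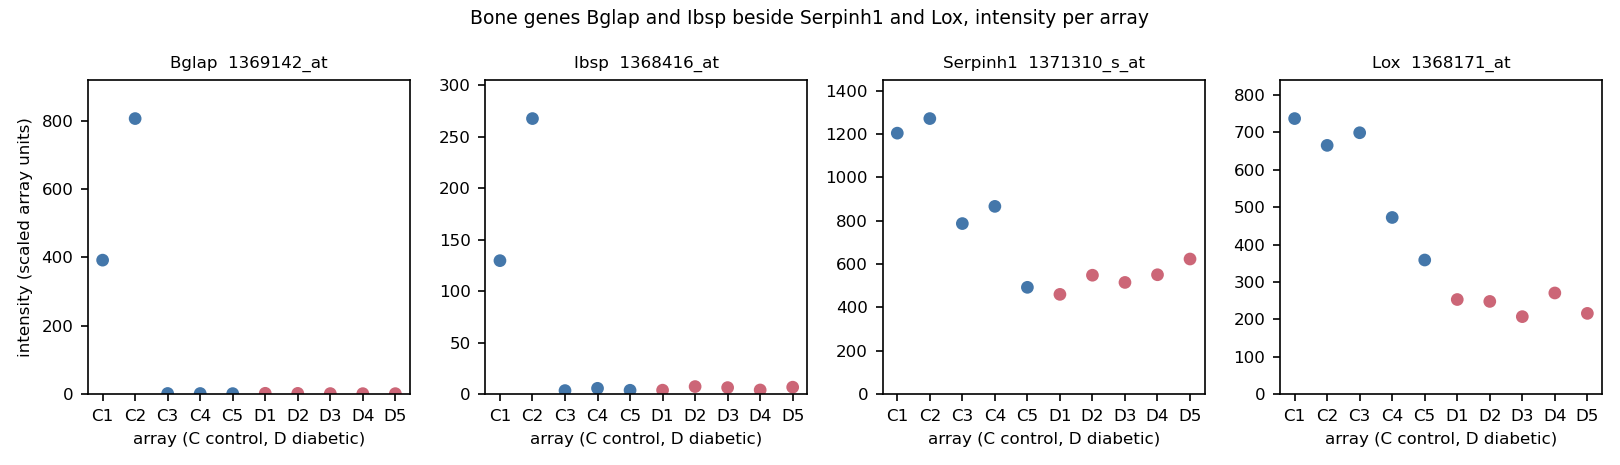
Intensity (scaled array units, vertical axis) in each array (horizontal axis; C control in blue, D diabetic in red, numbered by replicate) for the bone genes Bglap and Ibsp beside Serpinh1 and Lox. Bglap and Ibsp are near 0 outside controls 1 and 2, and Serpinh1 is highest in those 2 arrays. Lox is at 737.1 and 665.4 there, and at 699.2, 472.5 and 358.7 in controls 3, 4 and 5.

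Lox was the only member that limma called, with lower values in diabetic tissue. Pcolce and Serpinh1 were not called, though their 95% intervals, given below, were also wholly negative. Lysyl oxidase starts the covalent crosslinking of collagen and elastin, and both of its probe sets read lower. Probe set 1368171_at gave 737.1, 665.4, 699.2, 472.5 and 358.7 in controls 1 to 5 and 253.0, 247.9, 207.2, 270.5 and 215.9 in diabetic samples 1 to 5. All 5 diabetic values lay below all 5 control values, with controls 4 and 5 nearest to them. The mean went from 586.6 ± 163.2 to 238.9 ± 26.5 (SD, n = 5 per group), a 2.30-fold decrease, with a log2 difference of -1.20 ± 0.19 (SE; limma adjusted p = 0.0373). Probe set 1368172_a_at, the dimmer of the pair, gave 216.5, 182.2, 213.0, 197.4 and 126.2 in controls and 81.5, 81.4, 54.7, 97.7 and 75.7 in diabetic samples. It fell by 1.1 ± 0.16 on the log2 scale (limma adjusted p = 0.0372), again with no overlap between the groups. Its 5 controls and diabetic 4 lay above the limit of 85.9 set for a test, and its other diabetic values below. It was thus tested through the group where it is high. Without a filter its limma adjusted p was 0.0482. These 2 probe sets read the same gene and are no independent evidence for each other.

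Limma called 41 of 9683 tested probe sets, 0.423%, and 0.207% in the lower direction. The groups did not overlap in 3.89% of all tested probe sets, with diabetic values lower in 1.53%. Among the members, the 2 Lox probe sets of the 9 tested were called and were without overlap. The Lox calls were lost in most refits with single arrays left out, whereas the size changed little. For 1368171_at the difference then ran from -1.36 to -1.11 and the adjusted p from 0.00779 to 0.114, under 0.05 only without control 5, so leaving out any of controls 1 to 4 or of the 5 diabetic arrays ended that call. For 1368172_a_at it ran from -1.23 to -1.0, and the call held only without control 5 or without diabetic 4. Without controls 1 and 2 the 2 probe sets stood at -1.0 ± 0.20 and -1.04 ± 0.20 (limma adjusted p = 0.236 for each). Lox within scan days 1, 2 and 3 lay at -1.01, -0.86 and -1.44 by the brighter probe set, and within fluidics stations 1 and 2 at -1.21 and -0.96. Scan day 4 held 1 diabetic array and no control. Station went largely with group, with 4 of 5 controls on station 1 and 4 of 5 diabetic arrays on station 2. Either block ended both Lox calls: with scan day the probe sets stood at -1.17 and -1.03 (limma adjusted p = 0.214 and 0.166) and with station at -1.08 and -1.11 (adjusted p = 0.192 for each).

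**Figure D2:**
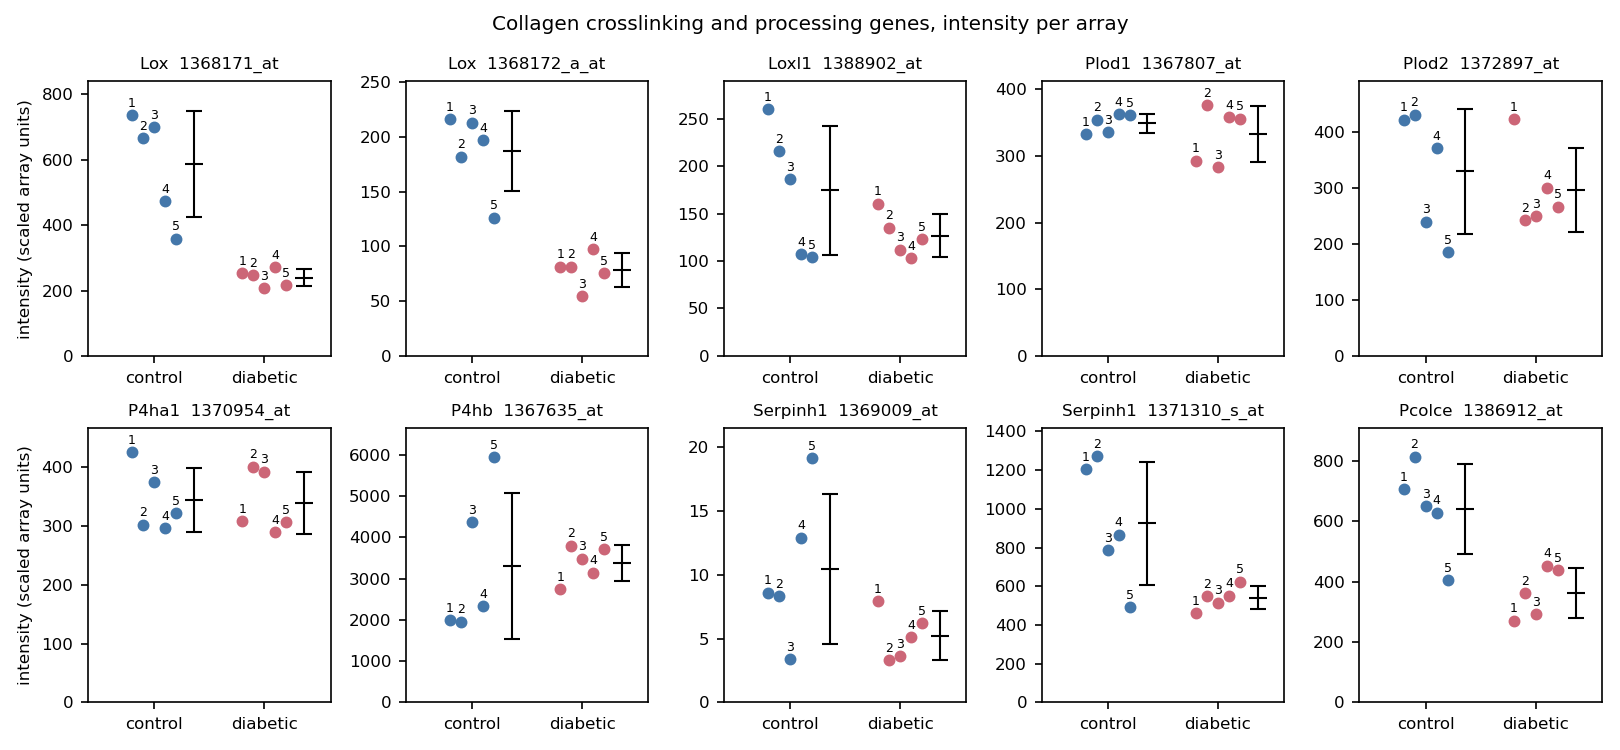
Intensity (scaled array units, vertical axis from 0) of all 10 probe sets in each control (blue) and diabetic (red) array, with replicate numbers beside the points and bars for the mean and SD of 5 arrays. The Lox panels show no overlap between the groups, with the lowest control of 1368171_at at 358.7 and the highest diabetic array at 270.5; in every other panel the groups overlap.

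Loxl1, the paralogue of Lox that acts mainly on elastin, did not pass the test. It read 259.9, 215.5, 186.2, 107.4 and 104.3 in controls and 160.5, 135.2, 111.9, 102.9 and 122.9 in diabetic samples. Controls 1 to 3 lay above all diabetic values, and controls 4 and 5 lay among them. The difference was -0.35 ± 0.23 (95% interval -0.87 to 0.16; limma adjusted p = 0.429), and -0.030 ± 0.20 without controls 1 and 2. Lox and Loxl1 differed in their change: the within-array log2 difference of Lox minus Loxl1 was 1.45 to 1.99 in controls and 0.61 to 1.27 in diabetic arrays. That is a shift of -0.85 (95% interval -1.19 to -0.51), with the smallest p that 5 against 5 arrays allow, 0.00794 (exact permutation test, two-sided; 0.0317 adjusted over the 4 pairs of members compared). Without controls 1 and 2 the shift was -0.97 (adjusted p = 0.0714), and with a single control left out -0.91 to -0.77 (adjusted p = 0.0635 each time). With a single diabetic array left out the call held (adjusted p = 0.0317 each time). The groups did not overlap in the full set, so they could not overlap in these refits. The exact permutation p was 0.0159 without a control. There another assignment of the arrays gave a shift as large but of opposite sign, which the two-sided test counts. Without a diabetic array the exact permutation p was 0.00794. The call was lost with scan day as a block (-0.86, adjusted p = 0.111), with station as a block (-0.97, adjusted p = 0.160) and with the skeletal muscle mean as a covariate (-0.82, adjusted p = 0.0635). Within scan day, within station and without controls 1 and 2 the exact permutation p was 0.0278, 0.04 and 0.0179. Each is the smallest that the few assignments allow. Adjusted over 4 pairs, this pair could not pass alone in those settings, so the 3 losses cannot show a weaker shift.

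Pcolce, which binds the end of procollagen and speeds its removal by the proteinase Bmp1, had a lower mean in diabetic samples but did not pass the test. It read 706.4, 815.2, 649.9, 628.7 and 406.4 in controls and 270.7, 362.4, 291.9, 453.3 and 438.5 in diabetic samples. Control 5 was the only control inside the diabetic range. The mean was 641.3 ± 149.9 in controls and 363.4 ± 82.8 in diabetic samples, a log2 difference of -0.79 ± 0.20 (95% interval -1.23 to -0.35; limma adjusted p = 0.0975). Without control 5 it stood at -0.94 (adjusted p = 0.0129), in a fit that called 11.0% of all probe sets, and without controls 1 and 2 at -0.61 ± 0.22 (adjusted p = 0.490). With arrays weighted by their fit, limma called Pcolce, Serpinh1 and both Lox probe sets lower, among 29.1% of all probe sets. Within scan days 1, 2 and 3 the Pcolce difference was -0.55, -1.17 and -0.69.

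Serpinh1, also known as HSP47, did not pass the test by its bright probe set, whose control values again spread widely. Probe set 1371310_s_at read 1204.5, 1271.8, 787.1, 866.5 and 492.8 in controls and 460.3, 548.7, 515.4, 550.9 and 623.5 in diabetic samples. The 2 highest values were those of controls 1 and 2, the arrays with bone genes, and control 5 lay below 4 of the 5 diabetic samples. The difference was -0.69 ± 0.23 (95% interval -1.19 to -0.19; limma adjusted p = 0.181). It was -0.36 ± 0.19 without controls 1 and 2 (adjusted p = 0.689) and -0.89 without control 5 (adjusted p = 0.0129). The part of bone-forming cells in the Serpinh1 difference was not tested beyond this. The other probe set, 1369009_at, read 3.3 to 19.1 over all arrays and did not reach the limit of 85.9 set for a test, so Serpinh1 rests on 1 probe set. The change of Serpinh1 minus that of Pcolce was 0.097 (95% interval -0.21 to 0.41; exact permutation p = 0.484, adjusted p = 0.815).

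Plod1 had the narrowest control range of the members. Plod1 hydroxylates lysines in the helical part of collagen, and Plod2 those of the telopeptides that Lox later oxidises. Plod1 read 332.5, 354.5, 335.2, 362.3 and 361.5 in controls and 293.0, 376.5, 282.9, 358.2 and 355.8 in diabetic samples, with diabetic 1 and 3 below every control. The difference was -0.072 ± 0.10 (95% interval -0.29 to 0.15; limma adjusted p = 0.719), and -0.087 ± 0.13 without controls 1 and 2. A 2-fold change in either direction lay outside the first interval. Plod2 read 421.0, 430.2, 239.1, 371.0 and 184.7 in controls and 422.5, 241.7, 249.2, 300.2 and 266.3 in diabetic samples. Controls 1, 2 and 4 and diabetic 1 were high, and the remaining 6 arrays ran from 184.7 to 300.2. Its difference was -0.11 ± 0.24 (95% interval -0.63 to 0.42; adjusted p = 0.832), and 0.18 ± 0.24 without controls 1 and 2, so its sign depended on them. The shift of Plod2 minus Plod1 was -0.034 (95% interval -0.73 to 0.66; exact permutation p = 0.937).

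The subunits of prolyl 4-hydroxylase showed no group difference that passed. P4ha1, the catalytic alpha subunit, read 424.5, 302.0, 373.6, 295.7 and 321.3 in controls and 307.5, 400.3, 391.9, 289.1 and 306.0 in diabetic samples, a difference of -0.018 ± 0.13 (95% interval -0.31 to 0.28; limma adjusted p = 0.955), and 0.030 ± 0.15 without controls 1 and 2. P4hb, the beta subunit, is protein disulfide isomerase, which also folds proteins unrelated to collagen. It read 1994.7, 1956.0, 4362.4, 2335.5 and 5940.5 in controls and 2744.1, 3802.9, 3483.1, 3141.7 and 3720.0 in diabetic samples. All 5 diabetic values lay in the gap between the 3 low controls, 1, 2 and 4, and the 2 high ones, 3 and 5. The difference was 0.17 ± 0.30 (95% interval -0.48 to 0.82; adjusted p = 0.784), and -0.23 ± 0.27 without controls 1 and 2, so its sign also depended on them. The shift of P4ha1 minus P4hb was -0.19 (95% interval -0.995 to 0.623; exact permutation p = 0.611, adjusted p = 0.815).

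**Figure D3:**
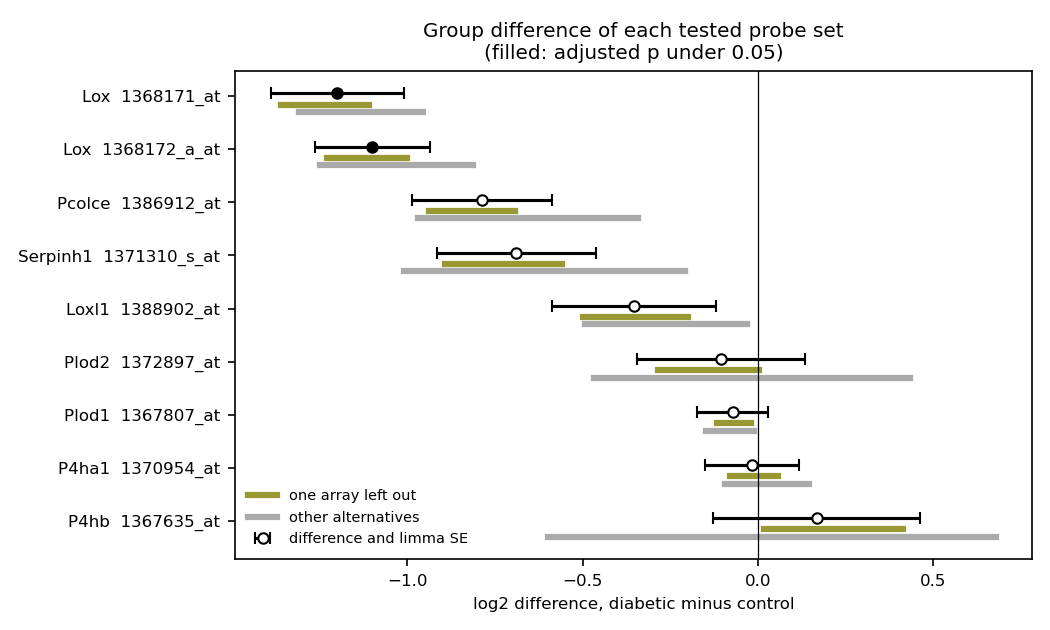
Log2 difference, diabetic minus control (horizontal axis), of the 9 tested probe sets with the limma SE (black), the range over refits with 1 array left out (olive) and the range over the other alternatives (grey). Filled points are the 2 Lox probe sets, at -1.20 and -1.10; the grey range of P4hb runs from -0.60 to 0.68 and that of Plod2 from -0.47 to 0.43.

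P4hb and Plod2 ranged widely within the control group, in opposite directions. The mean log2 intensity of the epithelial list was 5.93 and 5.94 in controls 1 and 2, 7.62 in control 4, 9.01 in control 3 and 9.45 in control 5, against 8.56 to 9.54 in diabetic arrays. P4hb was low in the controls with a low epithelial mean and high in controls 3 and 5, while among controls Plod2, Serpinh1 and Loxl1 were highest in controls 1 and 2. In controls 3 and 5, where the epithelial mean was high, Lox read 699.2 and 358.7, the latter its lowest control value. When controls 3 and 5 were left out, which was decided with the values known, P4hb was called higher by limma (0.68 ± 0.13, adjusted p = 0.00284) and Plod2 lower (-0.47 ± 0.17, adjusted p = 0.0494). That fit called 35.5% of all probe sets. Controls 3 and 5 have the highest P4hb and the lowest Plod2 of the controls. Leaving them out favours these directions, so these p are no test of them. With controls 1, 2 and 4 left out, decided likewise, both stood on the other side of 0, P4hb at -0.60 ± 0.17 (adjusted p = 0.174) and Plod2 at 0.43 ± 0.21 (adjusted p = 0.353). The brighter Lox probe set stood at -1.31 ± 0.15 and -1.03 ± 0.22 in these fits. With the epithelial mean as a covariate P4hb stood at -0.44, Plod2 at 0.33, Serpinh1 at -0.23, Pcolce at -0.46, Loxl1 at -0.054 and Lox at -0.96 (adjusted p = 0.0896). With the skeletal muscle mean as a covariate, Lox stood at -0.96 by each probe set (limma adjusted p = 0.755), Pcolce at -0.34 (adjusted p = 0.922), Serpinh1 at -0.22 (adjusted p = 0.999) and P4hb at -0.19. The part of epithelial and skeletal muscle cells in these differences was not tested further.

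**Figure D4:**
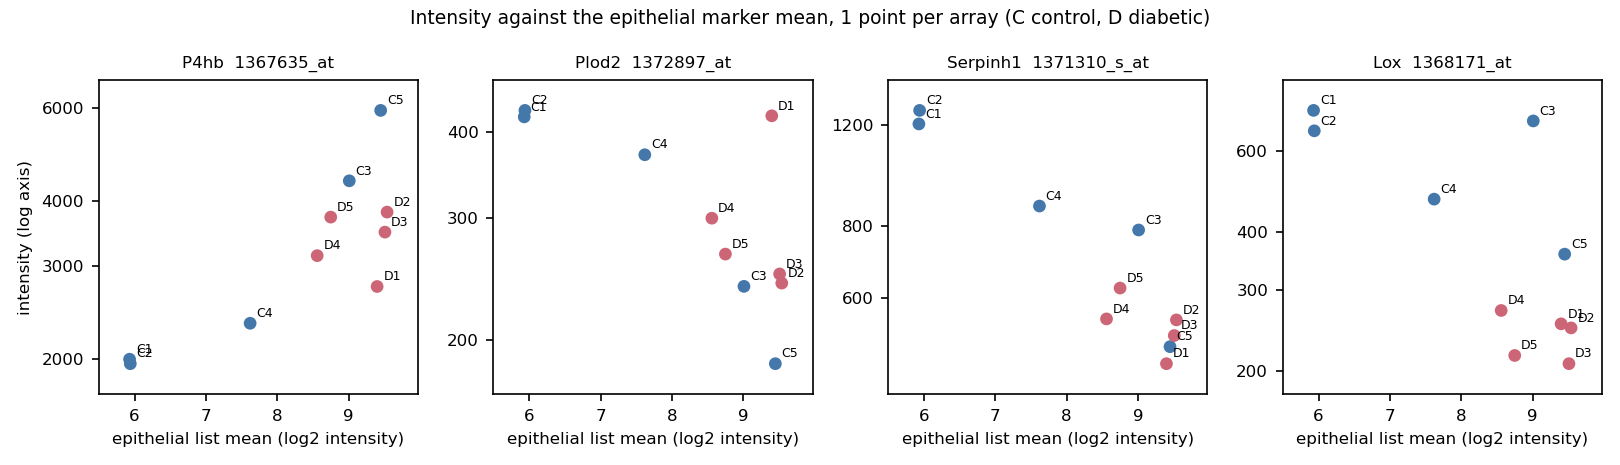
Intensity of P4hb, Plod2, Serpinh1 and Lox (vertical log axis, scaled array units) against the mean log2 intensity of the epithelial list (horizontal axis), 1 point per array, controls in blue and diabetic arrays in red. P4hb is low where the epithelial mean is low (controls 1 and 2, at 5.93 and 5.94) and highest in control 5; Lox is at 699.2 in control 3 and 358.7 in control 5, the 2 controls with a high epithelial mean, and at or below 270.5 in diabetic arrays.

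The stretch of 250 bases before the gene start is shown for the 4 members with the widest control range and a promoter in the RefSeq table (build GRCr8). These control ranges were 1.59 for P4hb, 1.34 for Serpinh1, 1.20 for Loxl1 and 1.15 for Plod2 on the log2 scale. P4hb lies at chr10:106346912-106347161 (minus strand), Serpinh1 at chr1:163062977-163063226 (minus strand), Loxl1 at chr8:67612225-67612474 (minus strand) and Plod2 at chr8:101964068-101964317 (plus strand). Of the 8 members 7 have a sequence there. Capitals mark the heat shock element GAANNTTC, the letters bound by the heat shock factor, and the hypoxia cores ACGTG and GCGTG, bound by hypoxia-inducible factors, on either strand (CACGT and CACGC on the other).
P4hb: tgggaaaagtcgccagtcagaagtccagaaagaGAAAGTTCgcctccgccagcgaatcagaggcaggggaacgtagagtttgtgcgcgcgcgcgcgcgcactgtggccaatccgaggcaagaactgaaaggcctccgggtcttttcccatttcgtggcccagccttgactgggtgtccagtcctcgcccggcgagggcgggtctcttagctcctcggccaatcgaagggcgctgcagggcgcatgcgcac
Serpinh1: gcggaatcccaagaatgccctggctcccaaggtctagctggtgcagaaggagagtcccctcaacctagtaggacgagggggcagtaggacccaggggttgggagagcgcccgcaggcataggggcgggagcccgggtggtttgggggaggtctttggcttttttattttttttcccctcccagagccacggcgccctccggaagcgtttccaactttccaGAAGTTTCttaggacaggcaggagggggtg
Loxl1: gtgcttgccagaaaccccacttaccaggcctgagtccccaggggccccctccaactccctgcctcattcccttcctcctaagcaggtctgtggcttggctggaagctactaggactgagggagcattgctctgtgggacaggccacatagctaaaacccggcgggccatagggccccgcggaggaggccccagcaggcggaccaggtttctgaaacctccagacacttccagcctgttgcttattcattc
Plod2: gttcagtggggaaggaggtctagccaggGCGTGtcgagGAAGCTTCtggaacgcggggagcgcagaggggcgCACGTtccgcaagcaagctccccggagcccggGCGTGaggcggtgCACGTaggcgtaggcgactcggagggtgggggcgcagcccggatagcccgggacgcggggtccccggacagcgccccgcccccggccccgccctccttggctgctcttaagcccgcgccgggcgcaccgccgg

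GAANNTTC was present in 4 of the 7 member promoters (P4hb, Serpinh1, Plod1 and Plod2) and in 7.23% of all 33469 promoters of that length. In Serpinh1, whose product is a heat shock protein, it stood at bases -30 to -23 from the start. ACGTG was present only in Plod2 among the 7, at 2 places, against 16.6% of all promoters, and GCGTG in 4 (Plod1, Plod2, P4ha1 and Pcolce) against 25.9%. The Loxl1 window held none of these, and no match overlapped another. Also searched were the GC box GGGCGG, in 5 of 7 members and 30.5% of all promoters, and CCAAT, in P4hb alone among the 7 and in 34.0% of all. A match describes the letters and says nothing on binding in these samples.

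The other genes that modify, process or export collagen, a list of 26, had 14 on the array and 13 tested. None of the 13 passed limma's test over all probe sets in either direction, while 3 were lower and 0 higher at an unadjusted p under 0.05, which 7.43% of all probe sets were in the lower direction. Sparc, a collagen-binding matrix protein that assists fibril assembly, went from 2558.2 ± 774.1 to 1102.0 ± 291.3 by its brightest probe set, a log2 difference of -1.19 ± 0.27 with no overlap between the groups (limma adjusted p = 0.0770). Fkbp10, a prolyl isomerase that acts with Plod2 on telopeptide lysines, stood at -0.49 ± 0.19 (adjusted p = 0.225). Bmp1, the proteinase that Pcolce enhances and that also activates the Lox proenzyme, stood at -0.38 ± 0.13 (adjusted p = 0.198). P3h4, a partner of the lysyl hydroxylase complex, stood at -0.20 ± 0.091 (adjusted p = 0.289). Plod3 was at 0.15 ± 0.10 and P4ha2 at 0.044 ± 0.086, and the median of the list was -0.019. The median over the brightest tested probe set of each of the 8 members was -0.23, with 7 of 8 negative, and over all tested probe sets it was 0.047, with 42.2% negative.

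The substrates lay further from 0 than most of the enzymes. Of 10 fibrillar collagen and elastin genes 7 were tested, with a median of -0.96, and none passed over all probe sets by its brightest probe set, while 6 were lower at an unadjusted p under 0.05. Col1a1 and Col1a2, the chains of type I collagen, stood at -2.05 ± 0.43 (adjusted p = 0.0658) and -1.81 ± 0.36 (adjusted p = 0.0591), and Col3a1 at -1.35 ± 0.27 (adjusted p = 0.0591). In these 3 genes the groups did not overlap. Eln, the precursor of elastin, stood at -0.49 ± 0.21 (adjusted p = 0.257). Without controls 1 and 2, Col1a1 stood at -1.91, Col1a2 at -1.71 and Col3a1 at -1.08 (limma adjusted p = 0.367, 0.331 and 0.342). Fibroblast markers (13 of 14 on the array) had a median of -0.25, with 12 of 13 negative and none passing. The smallest p were those of S100a4, a calcium-binding protein (-1.09 ± 0.34, adjusted p = 0.161), Fap, a surface peptidase (-0.58 ± 0.18, adjusted p = 0.175), Thy1 (-0.46 ± 0.21, adjusted p = 0.290) and Mfap4 (-0.28 ± 0.15, adjusted p = 0.335). Other markers of the list lay near 0, with Dcn at -0.0087 ± 0.15 and Lum at -0.062 ± 0.21. Fbln2, the 1 positive marker, stood at 0.10 ± 0.24. Without controls 1 and 2 the median of the list was -0.0062, with 7 of 13 negative. The summed fibroblast level was 9367.7 to 22367.3 in controls and 12176.7 to 15943.9 in diabetic arrays. The part of fibroblast number in the Lox difference was not tested.

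**Figure D5:**
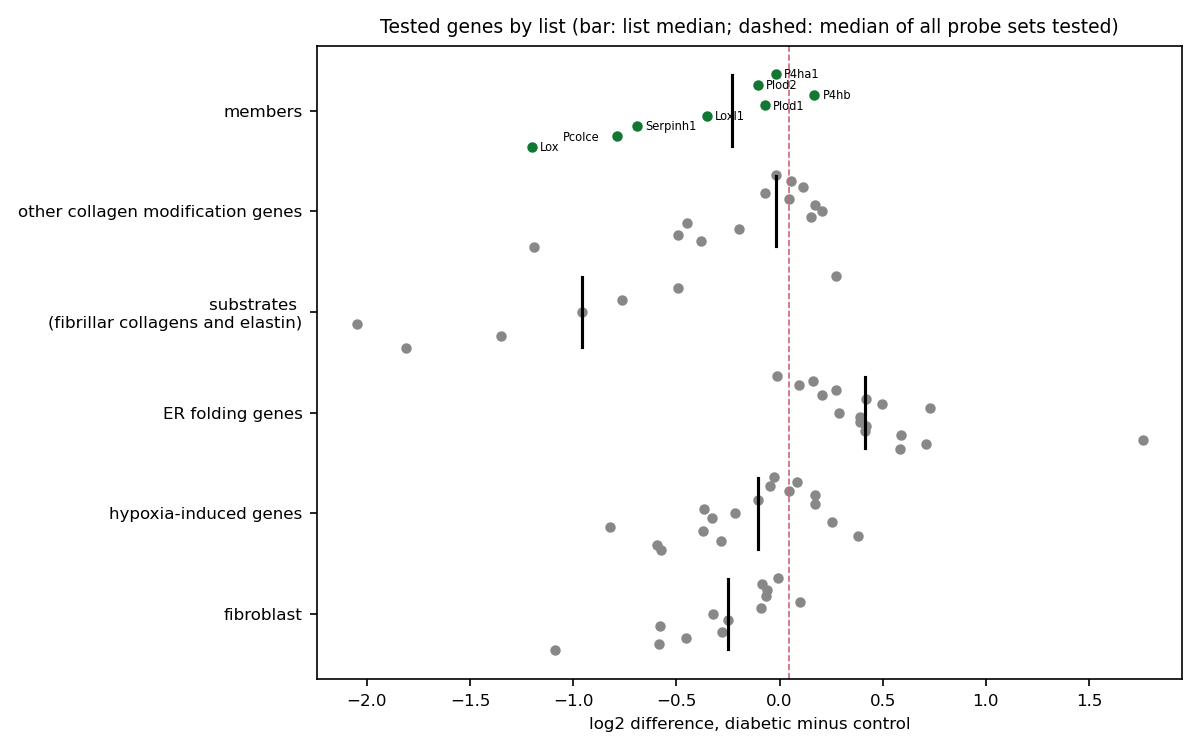
Log2 difference, diabetic minus control (horizontal axis), of each tested gene of the 8 members (green) and 5 other lists (grey), with the list median as a bar and the median of all tested probe sets, 0.047, as a dashed line. The substrates have the lowest median, -0.96, the folding genes the highest, 0.42, and the members spread from Lox at -1.20 to P4hb at 0.17.

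Folding genes of the endoplasmic reticulum, among which P4hb also works, lay on the other side of 0. Of 19 such genes 17 were tested, 16 were positive, the median was 0.42 and none passed over all probe sets. Dnajb9, a co-chaperone, stood at 0.59 ± 0.21 (adjusted p = 0.204) and Xbp1, a transcription factor of secretory cells, at 0.59 ± 0.31 (adjusted p = 0.341). The oxidases that recharge P4hb, Ero1a and Ero1b, stood at 0.71 ± 0.33 and 1.76 ± 0.91 (adjusted p = 0.299 and 0.335). Without controls 1 and 2 the list median was -0.030, with 11 of 17 negative, so its direction rested on those arrays as that of P4hb did. Per array the list averaged 8.77 and 8.83 on the log2 scale in controls 1 and 2, 10.2 and 10.6 in controls 3 and 5, and 9.77 to 10.2 in diabetic arrays.

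Low oxygen induces Lox, P4ha1 and Plod2 in many cell types. Of 19 other genes listed as induced by low oxygen 17 were tested and none passed, with 11 negative and a median of -0.10. The smallest p was that of Ldha, lactate dehydrogenase A (-0.57 ± 0.14, adjusted p = 0.0943). Hk2, a hexokinase, stood at -0.59 ± 0.23 (adjusted p = 0.229), Pgk1, a glycolytic kinase, at -0.28 ± 0.13 (adjusted p = 0.288) and Kdm3a, a histone demethylase, at 0.38 ± 0.18 (adjusted p = 0.298). Ldha, Hk2 and Pgk1 are also glycolytic genes of muscle.

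The profile of the Lox probe set with the smallest p, 1368172_a_at, was set against all tested probe sets with 1 gene, by the mean absolute difference of centred log2 values over the 10 arrays. The other Lox probe set was nearest, at 0.16. The 5 nearest other genes were Fn1, fibronectin (0.18), Gpx7, a peroxidase of the endoplasmic reticulum (0.18), Atp2b3, a plasma membrane calcium pump (0.18), Col5a2, a chain of type V collagen (0.19), and Dpp4, a peptidase (0.19). The median over all probe sets compared was 0.59, and a flat profile would lie at 0.55. Of these 5 genes Dpp4 passed the test (-0.95 ± 0.15, limma adjusted p = 0.0372), and Fn1 stood at -0.90 ± 0.21 (adjusted p = 0.0835). The genes were picked for likeness to a probe set that was itself picked for its group difference. Their lower diabetic values follow from that choice and are no further evidence.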

How the data were processed

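The authors deposited linear intensity values, 1 for each array at each probe set. As the values show, each array without the lowest and highest 2% averaged 250.05 to 250.06, so the arrays had been scaled to a common mean, and array medians ran from 116.7 to 131.3. How the intensities were computed was not stated, and no detection calls were used. The array records' headers give 1 chip lot, with the arrays run on 4 scan days and 2 fluidics stations. The 57 control probe sets among 15923 rows were not used. In the platform annotation 12783 of the others have a single gene, and no member shares its probe set with another gene; 12748 symbols were updated by Entrez identifier.

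Intensities were floored at 1 and transformed as log2(intensity + 16), which understates changes of dim probe sets. Testing required 5 or more of 10 arrays above the 40th percentile, 85.9. All 9683 were fitted with limma 3.58.1 in R 4.3.3 (two-sided, with an intensity trend). P-values were adjusted over all of them by Benjamini-Hochberg, with a threshold of 0.05. Simulated for this comparison on the same 9683 probe sets, the fit recovered 80.4% of 2-fold and 95.9% of 4-fold changes. Whether these shares hold where tissue makeup differs between arrays, as it did here, was not tested. In the real fit Lox at -1.20 was called. Col1a1 at -2.05, Col1a2 at -1.81 and Col3a1 at -1.35 were not (limma adjusted p = 0.0658, 0.0591 and 0.0591). The simulated shares therefore cannot be read as the share of real changes called here. The shift between 2 members was tested by exact permutation of the arrays, adjusted over 4 pairs. The number of arrays limits the precision.

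Groups follow the labels, and replicate numbers follow the order of deposit. Members and lists were chosen with earlier results of these data known. The genes named were all members, up to 4 genes per context list with the smallest unadjusted p, and the 5 nearest profiles to the member probe set with the smallest p. The list genes outside this rule (Plod3, P4ha2, Eln) and the tissue markers were chosen after their values were seen. Alternatives covered normalization, pseudocounts of 1 and 64, the filter, scan day and station as blocks, the trend, array weights, marker covariates, the mean of a gene's probe sets and left-out arrays. Figures were drawn with matplotlib 3.10.9.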

Additional observations from a re-analysis of the deposited data

How the results depend on the processing

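The 2 called member probe sets, both of Lox, were again 2 without a filter, without the intensity trend, with median centring, with quantile normalization and at pseudocounts of 1 and 64. The filter at the 60th percentile left 1 call, since the dimmer Lox probe set was then not tested. Scan day as a block, station as a block, the epithelial or the skeletal muscle list mean as a covariate, leaving out controls 1 and 2 and leaving out controls 1, 2 and 4 each gave 0, in limma fits that called 0, 0, 17, 0, 0 and 21 of all probe sets. At an unadjusted p under 0.05 those fits had 1119, 1483, 1172, 544, 773 and 1499. Array weights gave 4 (29.1% of all probe sets called). Leaving out controls 3 and 5, decided with the values known, gave 6 (35.5% of all probe sets called). With 1 array left out the count ran from 0 to 4, the 4 without control 5, where 11.0% of all probe sets were called. Lox was negative in all 26 refits, between -1.36 and -0.96 by its brighter probe set or, in 1 of them, the mean of its probe sets, a sign that the separation of the groups fixes in part. Over the alternatives without single left-out arrays, adjusted p ran from 0.000357 to 0.755 for Lox, 0.00236 to 0.922 for Pcolce, 0.00075 to 0.999 for Serpinh1, 0.00284 to 1.0 for P4hb and 0.0494 to 1.0 for Plod2. Each lowest value came from the fit without controls 3 and 5, which is no test of P4hb or Plod2. The number of all called probe sets, 41, ran from 0 to 3436 over the alternatives, with 22 at a pseudocount of 1 and 26 without a filter.

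Lox minus Loxl1 stood at -0.86 with scan day as a block (adjusted p = 0.111), -0.97 with station as a block (adjusted p = 0.160), and -0.82 with the skeletal muscle covariate (adjusted p = 0.0635). It was -0.97 (adjusted p = 0.0714) leaving out controls 1 and 2, and -0.89 (adjusted p = 0.127) leaving out controls 1, 2 and 4. With either block and in these reduced sets the exact permutation p was the smallest that the assignments allow. The pair could therefore not pass alone there. With 1 array left out Lox minus Loxl1 ran from -0.95 to -0.77. The call was lost without each of the 5 controls and held without each of the 5 diabetic arrays. The groups did not overlap in the full set, so they could not overlap in these refits. The loss came from another assignment of the arrays with a shift as large but of opposite sign, which the two-sided test counts. P4ha1 minus P4hb stood at -0.68 without controls 3 and 5 (exact permutation, adjusted p = 0.0357). Those arrays have the highest P4hb, 4362.4 and 5940.5, and were left out with the values known. That choice favours a negative shift, so this p is no test of it. Leaving out controls 1, 2 and 4 gave 0.56. Single left-out arrays moved P4ha1 minus P4hb between -0.45 and 0.035, Plod2 minus Plod1 between -0.23 and 0.085, and Serpinh1 minus Pcolce between 0.043 and 0.17. The cause of these changes in size was not tested. The filter, trend and weights do not enter the tests of pairs.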
